A study of Mus musculus with 8 samples.

Results

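The skeletal muscle myosin heavy chain family was measured as raw UMIs of 7 genes, *Myh1*, *Myh2*, *Myh3*, *Myh4*, *Myh7*, *Myh7b* and *Myh8*, in single-nucleus RNA-seq matrices of mouse gastrocnemius muscle. The genes were taken by name, and all 7 were found among the 21112 genes named in the matrices of all 8 libraries. A UMI is a molecular tag that counts 1 captured RNA molecule. Wild-type mice (C57BL/6 in the study's methods) formed 4 groups: Young (3 months), Old (20 months), Running and Sedentary. Running mice were 11 months old at the start of 2 months of treadmill training. Sedentary mice were also 11 months old at the start of that period and were not trained. Each group had 2 libraries, replicate 1 from a 10x Genomics set and replicate 2 from a second set made on another droplet platform. The number of animals per library is not given in the sources used here, so p-values measure only the spread between these libraries, which may be technical.

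Each muscle fibre contains many nuclei, and its contraction speed follows from the myosin heavy chain that forms its thick filaments. *Myh7* encodes the slow type I chain, *Myh2* the type IIa, *Myh1* the type IIx and *Myh4* the fastest, type IIb, which dominates in the mouse gastrocnemius. *Myh3* (embryonic) and *Myh8* (neonatal) are the developmental chains, and *Myh7b* is a slow-type relative that hosts a microRNA. Adult fibres are known to switch between neighbours in the order I, IIa, IIx and IIb, and fibres with 2 chains are called hybrid.

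The 2 developmental and 3 fast genes lie head to tail on the plus strand of chromosome 11 (GRCm38, GENCODE vM21). In order they were *Myh3* (67078300 to 67102291), *Myh2* (67171027 to 67197517), *Myh1* (67200052 to 67224575), *Myh4* (67238029 to 67260446) and *Myh8* (67277124 to 67308634), a span of 230.3 kb. *Myh2* and *Myh1* were separated by 2.53 kb, *Myh1* and *Myh4* by 13.5 kb, *Myh4* and *Myh8* by 16.7 kb, and *Myh3* and *Myh2* by 68.7 kb. *Myh7* lies on the minus strand of chromosome 14 (54970684 to 54994626) and *Myh7b* on the plus strand of chromosome 2 (155611212 to 155634307).

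Promoter sequences of the cluster are shown because genes that lie side by side there were found at very different levels in the same nuclei. Windows of 250 bases before and 50 after each start site were found in RefSeq (GRCm38.p6) for 7 of 7 members. Runs of at least 12 identical bases held by at least 3 of the 5 cluster genes were sought in the 250 upstream bases and then searched on both strands in all 32851 promoter windows. The 3 runs found are printed in capitals, all on the plus strand:

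Myh2 (chr11:67170889-67170924): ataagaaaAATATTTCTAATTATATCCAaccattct

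Myh1 (chr11:67199878-67199964): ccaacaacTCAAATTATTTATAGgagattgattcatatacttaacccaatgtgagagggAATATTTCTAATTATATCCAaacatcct

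Myh4 (chr11:67237617-67237676): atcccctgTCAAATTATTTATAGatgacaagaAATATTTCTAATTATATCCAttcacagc

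Myh8 (chr11:67277012-67277091): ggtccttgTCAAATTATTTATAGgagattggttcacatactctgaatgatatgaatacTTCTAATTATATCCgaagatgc

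The 20-base run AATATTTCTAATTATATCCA was shared by *Myh2*, *Myh1* and *Myh4*, and no other promoter window held it (3 windows, 0.00913% of all). The 15-base run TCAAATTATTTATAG was held by *Myh1*, *Myh4* and *Myh8* alone (0.00913%). TTCTAATTATATCC, a 14-base stretch inside the first run, was also in *Myh8* (4 windows, 0.0122%). None of the 3 runs was in the windows of *Myh3*, *Myh7* or *Myh7b*. A match describes the letters of these windows and is not evidence of a binding site.

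*Myh7* and *Myh7b* each carry a microRNA in an intron, and the 2 mature sequences are shown with the seed (bases 2 to 8) in capitals because both hosts were read in the same nuclei below:

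mmu-miR-208b-3p, in *Myh7* (chr14:54975710-54975731, minus strand): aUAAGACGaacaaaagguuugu

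mmu-miR-499-5p, in *Myh7b* (chr2:155622893-155622913, plus strand): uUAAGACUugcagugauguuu

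The first 6 of the 7 seed bases were the same in both. The microRNAs themselves were not measured by these libraries.

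Of the deposited nuclei, 64803 of 65280 were retained, with 10587 to 12991 in each 10x library and 4228 to 4772 in each library of the second set. The median depth was 1664 to 3001 UMIs per nucleus with 10x and 909 to 1689.5 in the other libraries. Clusters named myonucleus-like, from markers other than these 7 genes, held 25759 of 47059 10x nuclei and 11928 of the 17744 others. In Old replicate 2, 70.8% of nuclei lay in clusters that no marker list named, against 2.27% to 20.8% in the other libraries. Any 2 of the 10x libraries shared 30 to 46 barcodes, at most 0.390% of the smaller library.

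*Myh4* was the leading isoform in every library. Its level over all retained nuclei, in CPM (UMIs of the gene per 1000000 UMIs of the library or group of nuclei), was 5400 and 12554 in Young (replicates 1 and 2), 2700 and 5737 in Old, 1940 and 10813 in Sedentary, and 4149 and 12663 in Running. The second set was higher than the 10x set in every group. Within each set, with 1 library per group, Old was below Young and Sedentary below Running. The levels of Old and Young, like those of Running and Sedentary, overlapped only across the sets. Among the family's UMIs, *Myh4* took 93.9% and 68.8% in Young, 73.0% and 64.3% in Old, 53.1% and 86.0% in Sedentary, and 81.4% and 87.7% in Running. Shares after dividing each gene's UMIs by its genomic span, introns included, were close to these, from 56.0% to 94.5%.

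*Myh7* varied most between libraries. It stood at 1.16 and 854 CPM in Young, 127 and 275 in Old, 253 and 110 in Sedentary, and 4.39 and 204 in Running. Young replicate 1 held 46 *Myh7* UMIs among 11795 nuclei, whereas Young replicate 2 held 7763 among 4510, so the lowest and the highest level belonged to the same group. *Myh7b* followed it at a lower level, with 0.478 and 40.2 CPM in Young, 16.8 and 12.4 in Old, 37.8 and 8.39 in Sedentary, and 1.24 and 13.9 in Running. The 2 10x libraries that were low for *Myh7* were also the 2 that were low for *Myh7b*.

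*Myh2* was at 71.3 and 2465 CPM in Young, 516 and 913 in Old, 708 and 829 in Sedentary, and 195 and 690 in Running. *Myh1* was at 273 and 2313 CPM in Young, 334 and 1962 in Old, 708 and 802 in Sedentary, and 745 and 855 in Running. Young replicate 2 was the highest library for both genes, and *Myh1* nearly coincided between Sedentary and Running within each set. The developmental chains were scarce in all groups: *Myh8* ranged from 0.856 to 3.13 CPM in 10x libraries and from 9.02 to 14.7 in the others, and *Myh3* from 0.293 to 1.5 and from 1.47 to 7.07.

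**Figure D1:**
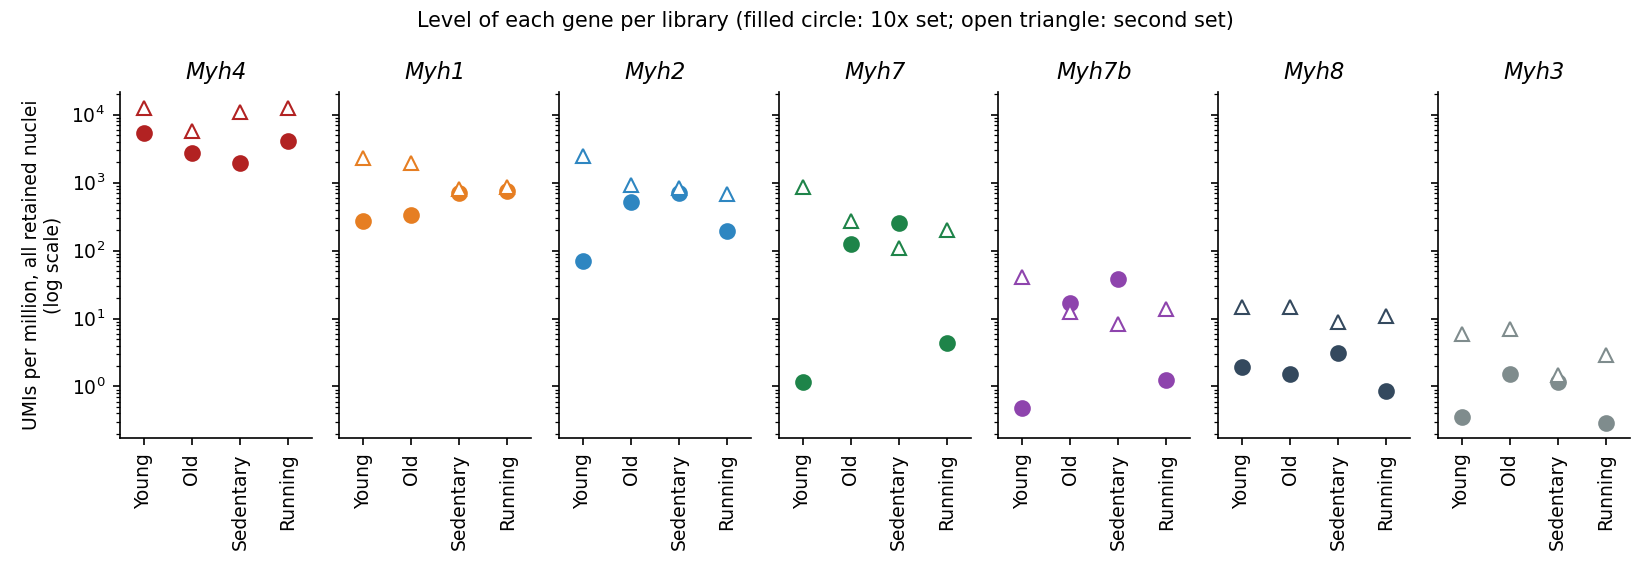
Level of each gene in CPM over all retained nuclei (log scale) for the 4 groups, 1 point per library, with filled circles for the 10x set and open triangles for the second set. *Myh7* spans 1.16 to 854 within Young, and the second set lies above the 10x set for *Myh4* in all 4 groups.

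**Figure D2:**
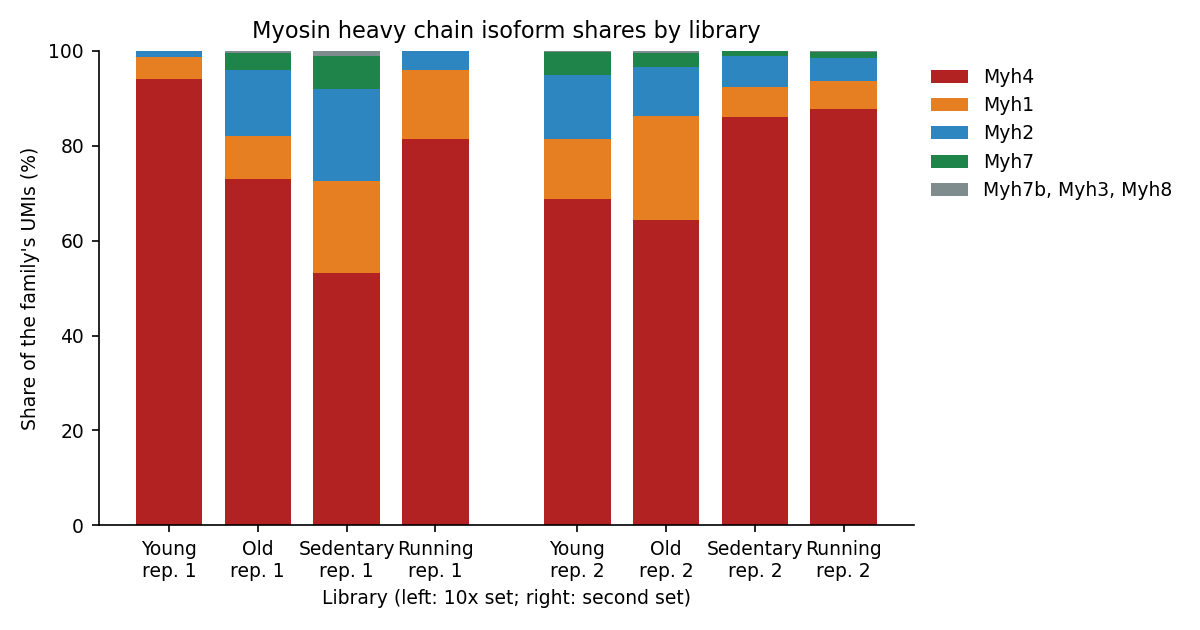
Share of each gene among the family's UMIs (%) in the 8 libraries, stacked to 100, with the 10x set on the left and the second set on the right. *Myh4* takes the largest share in each library, from 53.1% in Sedentary replicate 1 to 93.9% in Young replicate 1.

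The comparison of Old with Young asked whether isoform use differed with age. The fitted level of *Myh4* was lower in Old by 1.41 on the log2 scale (SE 0.59, unadjusted p = 0.0425), lower in both sets, and it did not pass edgeR's quasi-likelihood test over all genes (adjusted p = 0.69). The other 6 members had log2 fold changes from -0.61 (*Myh8*, SE 0.63) to 0.61 (*Myh3*, SE 1.01), each within its standard error. No gene of the 20324 tested was called (0% called), with 558 at an unadjusted p under 0.05. DESeq2 also called 0 genes, with 1176 at an unadjusted p under 0.05. In a sum over a whole library, fewer nuclei of a fibre type and less RNA per nucleus cannot be told apart.

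Within the library sets, 5 of 7 members moved in opposite directions. *Myh7* was higher in Old than in Young by 6.46 on the log2 scale among 10x libraries, whereas it fell by 2.23 in the other pair. *Myh2* was higher by 2.64 in the first pair and fell by 2.03 in the other. *Myh4* was lower in Old in both sets (-1.21 and -1.73), as was *Myh8* (-0.57 and -0.62).

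As shares of the family, *Myh4* was 68.7% ± 6.18 (SD, n = 2) in Old and 81.4% ± 17.8 in Young, a difference of -12.7 percentage points (-20.9 with 10x and -4.49 with the second platform; exact two-sided permutation test, p = 0.667). Without 1 library it lay between -25.3 points (without Young replicate 2) and -0.122 (without Young replicate 1). *Myh1* took 15.5% ± 9.16 in Old and 8.71% ± 5.61 in Young, a difference of 6.80 points (4.29 and 9.31 within the sets; 0.327 without Old replicate 2; exact permutation p = 0.667). *Myh2* differed by 4.72 points and *Myh7* by 0.904, both with opposite signs in the 2 sets. With 2 libraries against 2 the exact test cannot go below 0.333, and over the 16 share comparisons all adjusted p-values were 0.711 or 1.

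The comparison of Running with Sedentary asked whether training changed isoform use. The slow and IIa genes had the largest fitted differences: *Myh7* fell by 3.26 on the log2 scale (SE 2.53), *Myh7b* had -2.65 (SE 1.99) and *Myh2* -1.19 (SE 0.99), whereas *Myh4* had 0.58 (SE 0.58) and *Myh1* 0.12. None passed the edgeR test (adjusted p = 1), and no gene of 20324 was called (0% called, 98 at an unadjusted p under 0.05; DESeq2 0 called, 392 unadjusted), although 418 were called without Sedentary replicate 2. These values for the slow and IIa genes rested on 1 library. Without Sedentary replicate 1, *Myh7b* was at 0.52 and *Myh2* at -0.073 (lowest -1.96, without Sedentary replicate 2). *Myh7* was at 0.77 without Sedentary replicate 1 and at -5.66 without Sedentary replicate 2, where *Myh7b* was at -4.61. Each of these fits leaves 1 Sedentary library. With only the 4 libraries of these groups in the fit, *Myh7* was at -2.35 (edgeR adjusted p = 0.000634). That fit had 1 residual degree of freedom and combined differences of -5.75 within the 10x set and 0.86 within the second set.

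The share of *Myh4* was 84.6% ± 4.44 (SD, n = 2) in Running and 69.6% ± 23.2 in Sedentary, a difference of 15.0 points that was 28.3 between 10x libraries and 1.70 between the others (exact permutation p = 0.667), and -1.44 without Sedentary replicate 1. *Myh2* took 4.3% ± 0.668 in Running and 13% ± 9.05 in Sedentary (-15.6 and -1.82 points within the sets; -2.29 over both without Sedentary replicate 1; exact permutation p = 0.333, the smallest possible). In both shares the 10x pair differed more than the second pair.

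The same fits on myonucleus-like nuclei called 0 of 18652 genes in both comparisons (0% called; 628 and 171 at an unadjusted p under 0.05), and again 5 of 7 members had opposite signs in the 2 sets in each comparison. There DESeq2 called 4 genes with age, none of them a member, and 0 with training. The partner genes of each fibre type were equally uncalled. In myonucleus-like nuclei, 1 of 13 genes for fast-fibre proteins was positive in Old against Young (median log2 fold change -0.68, all genes 0.09) and 12 were positive in Running against Sedentary (0.69, all genes -0.02). Of the 10 slow-fibre genes, 10 and 0 were positive there (medians 1.27 and -2.36). Genes of 1 fibre type are not independent of each other, so these counts are a description and not a test. *Myh7* in the same nuclei had opposite signs in the 10x and second sets, at 6.71 and -1.41 with age and -5.76 and 0.79 with training. Over all nuclei, 0 and 12 of the fast genes were positive (medians -1.08 and 0.72, all genes 0.19 and -0.04), and 7 and 0 of the slow genes (0.47 and -2.0).

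Non-muscle nuclei also carried myosin UMIs, which sets the background for every value per nucleus. Among 10x libraries, *Myh4* was 6.64 times as abundant (CPM) in myonucleus-like as in non-muscle nuclei in Young, 4.23 times in Old, 2.97 in Sedentary and 3.48 in Running. In the second set the same ratio was 0.864, 1.42, 1.03 and 0.981. *Myh4* was thus about as high in nuclei named non-muscle as in myonucleus-like ones in 3 of 4 libraries. Those non-muscle nuclei came only from fibro-adipogenic progenitor and adipocyte clusters and numbered 93, 262, 106 and 145 in the same order. Myonucleus markers lay -0.159 and -1.66 from the rest of the set in these clusters (mean log2). In the 10x set these markers lay at -2.67 to -1.65 in fibro-adipogenic clusters and -2.28 in adipocytes. At least 1 *Myh4* UMI was found in 51.3% to 78.9% of the non-muscle nuclei of each 10x library, and the median depth in Old replicate 1, for example, was 2046 UMIs against 3756 in its myonucleus-like nuclei. The share was 96.6% to 100% in the second set. *Myh7* was better separated, at 5.36 to 10.1 times in the 3 10x libraries with enough UMIs and 1.36 to 2.70 times in the second set.

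**Figure D3:**
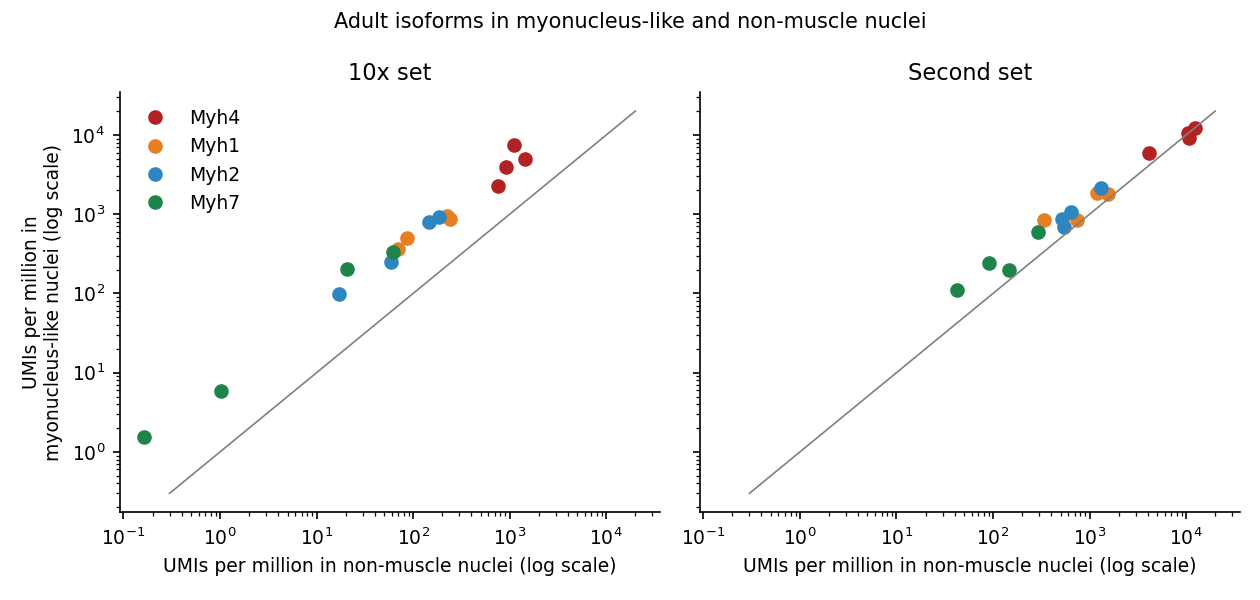
Level of the 4 adult isoforms in myonucleus-like (vertical) against non-muscle nuclei (horizontal), in CPM on log axes, 1 point per gene and library, with the line of equal level. The 10x points lie above the line, whereas the *Myh4* points of the second set lie on or near it, with ratios of 0.864 to 1.42.

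A nucleus was assigned a dominant isoform when it held at least 5 UMIs of the family and 80% or more were of 1 gene, and was called hybrid otherwise. With 10x, *Myh4*-dominant nuclei made up 93.9% of the assigned nuclei in Young, 78.2% in Old, 53.7% in Sedentary and 82.6% in Running. *Myh2*-dominant nuclei numbered 26, 510, 640 and 133 in the same order, and *Myh1*-dominant nuclei 203, 244, 700 and 764. *Myh7*-dominant nuclei were almost confined to 2 of these libraries, with 105 in Old, 205 in Sedentary, 5 in Running and 0 of 8019 in Young, which allows a share of up to 0.0374% (3 counts, counting error only). In the second set there were 0 to 5 such nuclei per library.

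Nuclei dominated by 1 gene differed in which other members they carried, within the limit that the dominance rule sets on those members. *Myh7*-dominant nuclei of Old replicate 1 held 7505 CPM of *Myh7* and 710 CPM of *Myh7b*, with a *Myh7b* UMI in 81.0% of them, and 174 CPM of *Myh4*, under the 919 CPM of non-muscle nuclei. Those of Sedentary replicate 1 held 6034 CPM of *Myh7* and 433 CPM of *Myh7b* (55.6% of nuclei), again with less *Myh4* (181 CPM) than non-muscle nuclei (763 CPM). *Myh2*-dominant nuclei in contrast held 432 to 1098 CPM of *Myh1* in the 10x libraries, above the 69.5 to 241 CPM of non-muscle nuclei. *Myh4* was at 170 to 267 CPM there and at 197 to 372 CPM in *Myh1*-dominant nuclei, below the background of the same libraries. The dominance rule picks nuclei with few UMIs of every other member, whereas the non-muscle nuclei were not picked in this way. The low *Myh4* of these classes is therefore at least partly set by the rule, and no conclusion is drawn from it.

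Clustering on the other genes set *Myh7* and *Myh7b* apart, whereas the fast isoforms overlapped within clusters. In the 10x set, a cluster of 539 nuclei held 5632 CPM of *Myh7* (98.3% of nuclei with a UMI) and 744 CPM of *Myh7b*. A cluster of 2322 nuclei held 4002 CPM of *Myh2* and 2306 of *Myh1*, and another of 4608 held 2237 CPM of *Myh1* beside 3147 of *Myh4*. The slow cluster drew 145 nuclei from Old replicate 1 and 386 from Sedentary replicate 1. In the second set, a cluster of 485 nuclei held 4448 CPM of *Myh7* and 439 of *Myh7b*, with 302 nuclei from Young replicate 2, 86 from Running, 62 from Sedentary and 35 from Old. The order of the groups by number of slow nuclei therefore differed between the sets.

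**Figure D4:**
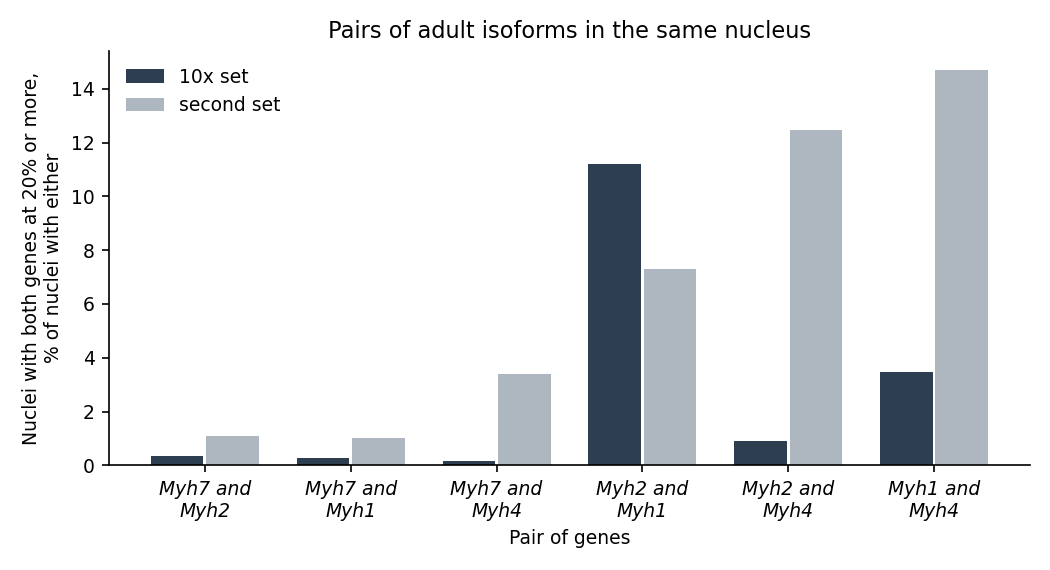
Nuclei in which both genes of a pair reach 20% of at least 10 family UMIs, as a percentage of nuclei in which either does, for the 6 pairs of adult isoforms. In the 10x set (dark) *Myh2* with *Myh1* stands highest at 11.2%, and the pairs with *Myh7* reach at most 0.339%.

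Pairs of isoforms within a nucleus were counted where both reached 20% of at least 10 family UMIs. In the 10x set, *Myh2* and *Myh1* were found together in 485 of 4335 nuclei with either (11.2%), *Myh1* and *Myh4* in 786 of 22748 (3.46%), and *Myh2* and *Myh4* in 206 of 22390 (0.920%). The pairs with *Myh7* were rare, at 8 of 2362 with *Myh2* (0.339%), 9 of 3299 with *Myh1* (0.273%) and 37 of 21047 with *Myh4* (0.176%). These counts include likely doublets. Without the 6% of nuclei with the highest Scrublet score, *Myh2* with *Myh4* went from 1.37% to 0.812% in Old and from 3.42% to 2.53% in Sedentary. *Myh7* with *Myh4* went from 0.247% to 0.123% and from 1.11% to 0.743% in these libraries. *Myh2* with *Myh1* went from 12.7% to 13.2% and from 11.7% to 12.1%. By number of all nuclei *Myh1* with *Myh4* was the most frequent pair, and as a share of nuclei with either gene, of which *Myh4* nuclei make up most, *Myh2* with *Myh1* was. The latter share ranged from 8.59% (Running) to 14.3% (Young) over the 4 libraries, while *Myh1* with *Myh4* ranged from 1.79% (Old) to 6.25% (Sedentary). In the second set *Myh1* with *Myh4* (14.7%) and *Myh2* with *Myh4* (12.5%) exceeded *Myh2* with *Myh1* (7.29%), in the libraries where *Myh4* was as high in non-muscle nuclei, and the part of that background in these pairs was not tested.

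The balance within a pair was mostly all or none in the 10x libraries. Of their nuclei with enough *Myh7* and *Myh2* UMIs, 0.247% in Old and 1.09% in Sedentary had a *Myh7* fraction between 20% and 80%. It was 0% in Young and Running, where 88 of 89 and 288 of 294 such nuclei had a fraction under 10%. With so few *Myh7* nuclei, Young and Running cannot show whether the 2 genes mix. The corresponding range over the 10x libraries was 10.6% to 17.0% for *Myh2* against *Myh1* and 2.09% to 6.59% for *Myh1* against *Myh4*. The *Myh2* to *Myh1* balance held the largest intermediate share in each of these 4 libraries. Libraries of the second set had more intermediate nuclei, at 22.6% to 38.6% for *Myh2* against *Myh1* and 0% to 18.9% for *Myh7* against *Myh2*. The 0% was that of Sedentary replicate 2, where only 8 of 136 such nuclei had a *Myh7* fraction of 90% or more. For *Myh1* against *Myh4* they had 51.5% in Old replicate 2, above its 38.2% for *Myh2* against *Myh1*, 25.9% in Young, 7.34% in Running and 11.2% in Sedentary.

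After thinning each nucleus to 5 family UMIs, hybrid nuclei made up 5.50% (Wilson 95% interval 4.95% to 6.11%) in Old replicate 1, 2.0% in Young, 5.27% in Running and 14.2% in Sedentary, and 44.9%, 36.4%, 11.3% and 13.2% in the second set. Without thinning the shares were 7.42%, 3.28%, 7.25% and 19.6%, and 62.3%, 54.4%, 15.1% and 18.5%. Non-muscle nuclei, which should lack the genes, gave 4.86%, 3.69%, 8.07% and 24.3%, then 46.5%, 31.2%, 8.28% and 6.86%. Only those with at least 5 family UMIs entered: 576, 488, 706 and 206 nuclei with 10x, and 157, 93, 145 and 102 in the second set. Intervals were wide with so few nuclei, for example 38.9% to 54.3% (Wilson 95%) in Old replicate 2. As point values the non-muscle shares were higher than the shares of all nuclei in 4 of 8 libraries, so a hybrid nucleus is not read as a hybrid fibre. Hybrid shares were 25.2% ± 27.9 (SD, n = 2) in Old and 19.2% ± 24.3 in Young (exact permutation p = 0.667; -13.7 points without Old replicate 2 and -11.2 without Young replicate 1), and 8.27% ± 4.24 in Running and 13.7% ± 0.764 in Sedentary (exact permutation p = 0.333).

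The dominant isoform was then used to ask which other genes went with each chain. RNA was summed per library and class, the 7 members were removed, and each class was compared with *Myh4*-dominant nuclei of the same libraries in 1 edgeR fit with library as a block. The *Myh7* class rested on 2 libraries (Old and Sedentary replicate 1), the *Myh2* class on 5 and the *Myh1* class on 6. In the 10x libraries, 79.2% to 96.2% of the nuclei of each class used lay in myonucleus-like clusters, against 23.1% to 30% in Old replicate 2, and 65.2% (*Myh1*) and 75.4% (*Myh4*) in Young replicate 2.

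*Myh7*-dominant nuclei differed in 2036 of 15189 genes (13.4% called), with 1049 higher (6.91%) and 987 lower (6.5%). Without Old replicate 1 the count was 1207 and without Sedentary replicate 1 it was 889. This split was 1414 and 867 under relative log expression scaling, which moved the median of all genes from -0.13 to 0.03, and 957 and 1806 without likely doublets. All 10 genes of the slow-fibre list were higher and all 13 of the fast-fibre list lower, with medians of 6.91 and -3.24 on the log2 scale (all genes -0.13). *Tpm3*, the slow tropomyosin, was at 5242 and 4381 CPM in the *Myh7* class of Old and Sedentary replicate 1, against 33.2 and 37.3 CPM in their *Myh4* class (log2 fold change 6.88, SE 0.28, edgeR adjusted p = 1.10e-21). *Atp2a2*, the slow calcium pump, was at 3948 and 3339 CPM against 31.8 and 24.2 (6.69, SE 0.27, edgeR adjusted p = 8.94e-22). The slow troponins *Tnni1*, *Tnnc1* and *Tnnt1* had 7.58, 7.53 and 7.23, and the slow light chains *Myl2* and *Myl3* 6.73 and 6.15. *Myh6*, the alpha cardiac chain next to *Myh7* and close to it in sequence, had 7.10 (SE 0.58), and how reads of such paralogs were assigned is uncertain.

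On the fast side, *Mybpc2*, the fast myosin binding protein, fell by 4.28 (SE 0.38), *Mylk4* by 3.93, *Tpm1* by 3.91, *Tnnt3*, the fast troponin T, by 3.61 and *Actn3*, the fast Z-disc actinin, by 3.48 on the log2 scale. *Tnnt3* went from 2258 and 1732 CPM in the *Myh4* class to 180 and 209 CPM in the *Myh7* class. The smallest decreases were those of *Tnnc2* (-1.28), *Casq1* (-1.74) and *Atp2a1* (-1.86).

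*Myh2*-dominant nuclei differed in 2797 genes (18.4% called; 1285 higher, 8.46%, and 1512 lower, 9.95%) and shared only some of this. The split was 1586 and 1475 under relative log expression scaling, 1248 and 2398 without likely doublets, and 1040 and 3078 without the filter on low counts. Of the fast list, 11 of 13 genes were lower and 0 higher (median -1.15, all genes -0.12), with *Mybpc2* (-4.20, SE 0.25), *Actn3* (-3.77, SE 0.24) and *Pvalb*, the calcium buffer of fast fibres (-2.79, SE 0.20), lower in 5 of 5 libraries. *Actn3* was at 22.9 CPM in the *Myh2* class of Old replicate 1, 89.2 in Young, 77.5 in Running and 43.8 in Sedentary, against 538, 1160, 992 and 400 CPM in the *Myh4* class. *Tnnt3* changed less (-0.73, SE 0.18, edgeR adjusted p = 0.00178).

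Of the slow list, 4 of 10 genes were higher in *Myh2*-dominant nuclei and 0 lower: *Myoz2*, a Z-disc protein (5.80, SE 0.43), *Casq2*, the slow calsequestrin (3.90), *Myl3* (3.38) and *Myl2* (2.85). *Tpm3*, *Atp2a2* and the 3 slow troponins were not called there. The list's median was 0.77, or 0.93 without *Myh6*, which had 0 UMIs of 4633226 in this class and 0.375 CPM in the other, under the floor of 3 counts over the class (0.647 CPM), so no fold is given.

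*Myh1*-dominant nuclei differed in 1866 genes (12.3% called; 819 higher, 5.39%, and 1047 lower, 6.89%). The split was 818 and 1998 without likely doublets, 693 and 2229 without the filter, and 1345 and 1028 with the 10x libraries alone. Here 9 of 13 fast genes were lower (median -1.04, all genes -0.12), led by *Actn3* (-2.02, SE 0.19) and *Mybpc2* (-1.74, SE 0.19), and 2 of 10 slow genes were higher, *Casq2* (2.66, SE 0.34) and *Myoz2* (1.57, SE 0.51). The *Myoz2* call was lost with DESeq2 (1.66, DESeq2 adjusted p = 0.106), with dominance at 60% (0.82, edgeR adjusted p = 0.353) and without Running replicate 1 (1.31, edgeR adjusted p = 0.0953). Fold changes of *Actn3* and *Mybpc2* were thus smaller in the *Myh1* than in the *Myh2* class, although the difference between the 2 classes was not tested.

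**Figure D5:**
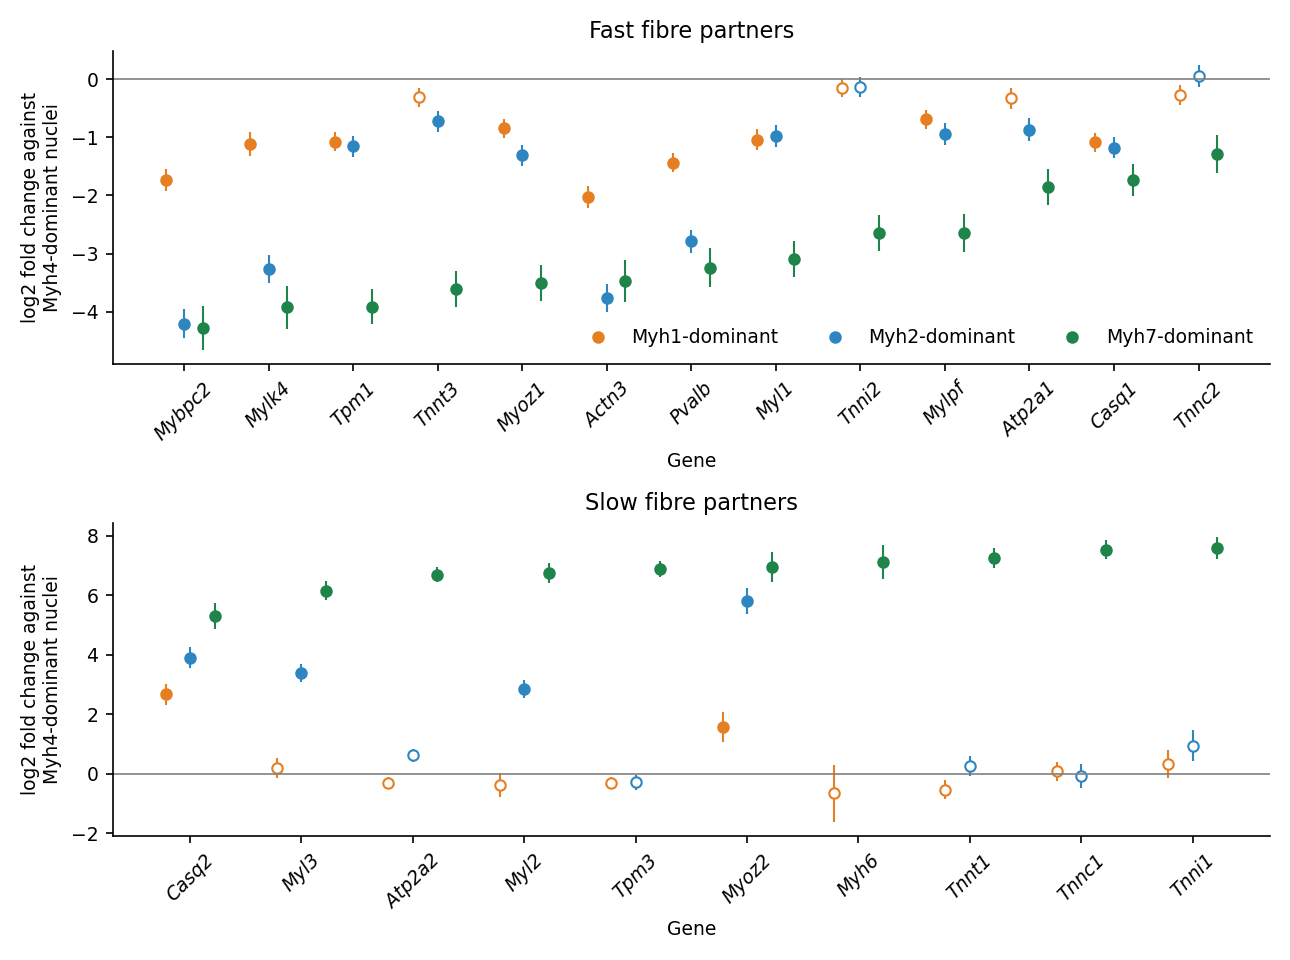
Log2 fold change against *Myh4*-dominant nuclei for the 13 fast-fibre and 10 slow-fibre genes in *Myh1*-, *Myh2*- and *Myh7*-dominant nuclei, with bars of 1 SE, filled points for genes called by edgeR and open points for those not called. In *Myh7*-dominant nuclei all 13 fast genes lie below 0 and all 10 slow genes above 0, and the *Myh6* point of the *Myh2* class is left out because that class held 0 UMIs.

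Genes for thick filament proteins and myosin folding included some in each direction. *Myom3*, an M-band protein, was higher in all 3 classes (5.22 in *Myh7*, 5.10 in *Myh2* and 2.05 in *Myh1* nuclei, log2 fold change), and *Mybpc1*, the slow myosin binding protein, likewise (2.16, 2.14 and 1.55). In the *Myh1* class *Myom3* was higher in 4 of 6 libraries and was not called with DESeq2 (1.58, DESeq2 adjusted p = 0.121). *Mybph* was lower in all 3 (-2.75, -3.18 and -2.78), as were *Mylk2*, the skeletal light chain kinase (-1.77, -1.75 and -1.46), *Trim63*, a ubiquitin ligase of the sarcomere (-1.98, -0.94 and -0.81), and *Unc45b*, the myosin chaperone (-0.89, -0.98 and -0.77). *Myom2* was called lower in *Myh7* (-4.74) and *Myh2* nuclei (-1.49). In all, 2 of 13 genes of this list were higher in each class and 5, 6 and 4 were lower, beside 6.91%, 8.46% and 5.39% of all genes higher and 6.5%, 9.95% and 6.89% lower. Among the other myosin heavy chains, *Myh10*, a non-muscle chain, was higher in all 3 classes (3.23, 2.21 and 1.23), in 2 of 2, 4 of 5 and 4 of 6 libraries.

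Of 17 regulators of fibre type, 5 were higher and 6 lower in *Myh7* nuclei, 5 and 5 in *Myh2* nuclei, and 3 and 5 in *Myh1* nuclei. Over all genes, 6.91% were higher and 6.5% lower in the first class, 8.46% and 9.95% in the second and 5.39% and 6.89% in the last. *Prox1*, a homeobox factor, was called higher in the *Myh7* class only, at 153 and 75.2 CPM against 2.31 and 1.91 CPM in the *Myh4* class of Old and Sedentary replicate 1 (log2 fold change 5.72, SE 0.44). *Maf* was lower in each class, by 3.43, 2.58 and 1.19, as was *Sox6*, a repressor of slow genes (-1.99, -1.66 and -1.06), and *Eya1*, a cofactor of the fast program (-1.08, -1.23 and -0.98). *Maf* stood at 828 and 894 CPM in the *Myh4* class and at 64.5 and 101 CPM in the *Myh7* class of the same 2 libraries. *Esrrg*, an oestrogen-related receptor, was higher in all 3 (2.42, 2.54 and 2.10), as was *Vgll2*, a TEAD cofactor (2.83, 1.29 and 0.95). *Vgll2* lost its call in each class under some setting. In the *Myh7* class this was without Old replicate 1 (1.94, edgeR adjusted p = 0.0777), and in the *Myh2* class without Old replicate 1 (1.08, edgeR adjusted p = 0.0537) or Running replicate 1 (1.0, edgeR adjusted p = 0.0565). In the *Myh1* class it was without Running replicate 1 (0.90, edgeR adjusted p = 0.0777) and with dominance at 60% (0.61, edgeR adjusted p = 0.0517).

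Genes annotated between or across the members also differed between the classes. Whether the counts used strand is not stated, so reads of an antisense RNA and of the myosin it overlaps cannot be told apart. *Mhrt* (chromosome 14, 54968678 to 54974349, plus strand) and *Gm31251* (54979393 to 54991601, plus strand) overlap exons of *Myh7*. *Mhrt* was at 1090 and 886 CPM in *Myh7*-dominant nuclei of Old and Sedentary replicate 1 and 0.787 and 2.65 CPM in their *Myh4*-dominant nuclei (log2 fold change 9.18, SE 0.37). *Gm31251* was at 1548 and 1115 CPM against 0.590 and 3.61 (9.46, SE 0.41). Neither was called in the *Myh2* or *Myh1* class.

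On chromosome 11, *Myhas* (67211256 to 67237573, minus strand) covers the gap between *Myh1* and *Myh4* and overlaps *Myh1* exons. It was at 286, 873, 704 and 364 CPM in *Myh4*-dominant nuclei of the 10x libraries (Old, Young, Running, Sedentary) and at 41.6, 55.8, 68.5 and 57.9 CPM in *Myh2*-dominant nuclei (log2 fold change -3.16, SE 0.26). In *Myh7*-dominant nuclei it fell to 11.1 and 14.7 CPM (-5.15, SE 0.47). In *Myh1*-dominant nuclei the change was small (-0.60, SE 0.20, edgeR adjusted p = 0.0365) and not called without Young replicate 1 (-0.39) or Running replicate 1 (-0.42), with relative log expression scaling (-0.52), with DESeq2 (-0.44) or with 10x libraries alone (-0.61).

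*9430073C21Rik* (67195680 to 67199234, minus strand), which overlaps the end of *Myh2* and runs into the gap before *Myh1*, was higher in *Myh2*-dominant nuclei in 5 of 5 libraries (4.71, SE 0.33). It was at 242, 134, 261 and 138 CPM there in the 10x libraries, against 4.38, 5.84, 8.65 and 6.89 CPM in *Myh4*-dominant nuclei. In the *Myh1* class it was called higher too (2.25, SE 0.33), in 3 of 6 libraries. *2310065F04Rik* (67112461 to 67120080, minus strand), between *Myh3* and *Myh2*, was lower in all 3 classes (-2.54, -1.79 and -0.81). In the *Myh7* class this call was lost without Sedentary replicate 1 (-2.66, edgeR adjusted p = 0.0719), as was that of *Mybph* (-2.81, edgeR adjusted p = 0.0508).

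Outside these lists, the largest called differences that held in every library were named by size. In *Myh7* nuclei the long noncoding RNAs *Gm12295* (7.31), *Gm38505* (6.84) and *Sox2ot* (6.46) were higher. *Casr*, the calcium-sensing receptor, *Gm49192* and *AC103362.1* had 0 UMIs of 994742 in the *Myh7* class and 42.8, 23.3 and 16.4 CPM in the *Myh4* class, which makes them at least 14.2-, 7.73- and 5.44-fold lower (floor of 3 counts over the class). In *Myh2* nuclei *Gm5427* (6.49), *Ankrd2*, a stretch-responsive ankyrin repeat protein (6.07), and *Ldhb*, the heart-type lactate dehydrogenase (5.35), were higher, and *Gm32312* (-4.90), *Igfn1* (-4.82) and *Gm14505* (-4.59) lower. *Gm5427* (4.12) and *Ldhb* (3.53) also led in *Myh1* nuclei, with *Atp1b1*, a sodium pump subunit (3.35), and *Gm14505* (-4.43), *Slc4a10* (-3.87) and *Gm19299* (-3.80) were lower.

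*Myh7b* was seen in few nuclei. In the 10x set 677 of 47059 nuclei had a *Myh7b* UMI, and 53.3% of these lay in the cluster with the highest *Myh7*. In the second set it was 340 of 17744 nuclei, 54.1% of them in the *Myh7* cluster of that set. Of the 99 10x nuclei and 16 second-set nuclei with 5 or more *Myh7b* UMIs, the highest count was 19.

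*Myh3* was found in 76 of 47059 10x nuclei and *Myh8* in 135, with 113 and 248 UMIs in all. Nuclei of clusters named neuromuscular junction-like held 9.86 CPM of *Myh3* and 22.2 CPM of *Myh8*, against 0.426 and 1.28 CPM in myonucleus-like nuclei. These levels rested on 5 and 6 of 604 nuclei (0.828% and 0.993%), compared with 0.113% and 0.264% of myonucleus-like nuclei. Myotendinous junction-like nuclei of the 10x set held 2.90 CPM of *Myh3* and 8.69 CPM of *Myh8* (0.483% and 0.966% of 621 nuclei). Clusters that no marker list named held 2.55 and 5.68 CPM (0.451% and 0.953% of nuclei). Neither gene was thus particular to the neuromuscular junction-like nuclei. The highest single count was 24 *Myh8* UMIs, in a nucleus of Young replicate 1 with 51 *Myh4* and 14 *Myh1* UMIs. In the second set no *Myh3* UMI was seen in 181 neuromuscular junction-like nuclei, which allows a share of up to 1.66% with so few nuclei (3 counts, counting error only), and *Myh8* was seen in 3 of them (9.66 CPM). Of the 10x nuclei with *Myh3* or *Myh8*, 57.9% and 70.4% also had *Myh4* at 20% of the family or more, and 97.8% and 97.6% in the second set. Among all nuclei with at least 10 family UMIs, *Myh4* reached 20% in 4319 of 5347 (Old), 7338 of 7623 (Young), 7090 of 8109 (Running) and 1908 of 3335 (Sedentary) with 10x. In the second set it did so in 1268 of 1339, 4258 of 4360, 4064 of 4065 and 2924 of 2949. No link of *Myh3* or *Myh8* with *Myh4* is therefore read from these shares.

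Across sums per library and cluster (81 sums of 10x nuclei and 38 of the other set), the genes most like each member were named by the smaller of its correlations in the 2 sets, as a description over sums that share libraries and depth. *Myh4* was most like *Actn3* (r = 0.91), *Pvalb* (0.91) and *Eno3* (0.89), all well above the best value for any other member. *Myh2* was most like *Fhl1* (0.71), *Actn2* and *Coq8a* (both 0.68), and *Myh1* like *Got1* (0.65), *Tmem65* (0.64) and *Coq8a* (0.63). *Myh7* and *Myh7b* both had *Tpm3* first (0.62 and 0.60). Among the members, *Myh7* and *Myh7b* had r = 0.76 with 10x and 0.82 in the other set, *Myh2* and *Myh1* 0.61 and 0.86, and *Myh4* with *Myh1* 0.0425 and -0.00743. *Myh3* and *Myh8* had 0.51 and 0.37 with each other. Among the 5758 genes above the minimum mean level, none exceeded 0.36 for *Myh3* or 0.33 for *Myh8*.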

How the data were processed

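Single-nucleus RNA-seq of gastrocnemius muscle was analysed from the raw UMI counts that the authors deposited for 8 libraries. Per the study's methods, the 10x reads were aligned to mm10 with Cell Ranger 6.1.2 and those of the second set (DNBelab C of MGI) with PISA. The submitters' processing notes also name Seurat 4.1.1. Whether intronic reads or strand were used in counting is not given in the sources used here. Background RNA was not removed. As in the methods, nuclei were retained when their genes numbered over 200 but below 6000 and mitochondrial UMIs stayed below 6%. Doublets were left in, and an alternative dropped the 6% of nuclei with the highest Scrublet score per library.

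Genes named in all 8 matrices, without 12 mitochondrial and 83 ribosomal protein genes, were used. Each set was clustered apart without the 7 members (scanpy 1.11.5; 2000 variable genes, 30 components, 20 neighbours, resolution 1.0), and clusters were named from marker lists. Replicate 1 marks the 10x set and replicate 2 the second set. The number was given in accession order and pairs no libraries. Library sums were tested with edgeR 4.0.16 (quasi-likelihood F-test, TMM, filterByExpr, Benjamini-Hochberg, threshold 0.05) in R 4.3.3, with group and library set as terms over 8 libraries. Class sums of at least 20 nuclei were tested with library as a block. DESeq2 1.42.0 was an alternative. Shares have Wilson 95% intervals, which cover counting error only, and were compared by exact permutation tests. The scripts were tested on simulated data with known changes. To compare hybrid shares across depths, nuclei with at least 5 family UMIs were thinned to 5. Sums over 50 or more nuclei entered the correlations, for genes with mean log2 CPM of at least 4.

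The members, gene lists and tests were chosen with earlier results of these data known. Named genes were the 7 members, genes across or between them, up to 5 called genes per list and class by size, and up to 3 higher and 3 lower called genes outside the lists that moved 1 way in every library, again at that mean level. *Tnnc2*, *Atp2a1*, *Casq1*, *Pvalb*, *Myl2*, *Myl3*, *Mybpc1*, *Mylk2*, *Trim63*, *Unc45b* and *Eya1* were named in addition, after their values were seen.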

Additional observations from a re-analysis of the deposited data

Results flagged for a closer look

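The differences of 5 members between Old and Young, and of 4 between Running and Sedentary, had opposite directions in the 2 library sets, each set holding 1 library per group. For Old against Young, the log2 differences, first among 10x libraries and then in the second set, were 0.082 and -0.84 for *Myh1*, 2.64 and -2.03 for *Myh2*, 1.66 and -0.32 for *Myh3*, 6.46 and -2.23 for *Myh7*, and 4.69 and -2.29 for *Myh7b*. For Running against Sedentary, they were -1.63 and 0.90 for *Myh3*, -5.75 and 0.86 for *Myh7*, -4.76 and 0.70 for *Myh7b*, and -1.69 and 0.23 for *Myh8*. The difference between the sets was not tested, since each has 1 library per group, and platform, counting software and animal cannot be told apart from it.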

How the results depend on the processing

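The 3 class comparisons kept their direction for the named genes in nearly every setting. Over the 95 results of single genes, 654 of 665 values under other processing and 747 of 760 values without 1 library kept direction and side of the threshold. Without a filter on low counts, 3124 genes were called in *Myh7* and 2922 in *Myh1* nuclei, and without likely doublets 2816 in *Myh1* nuclei. Leaving out 1 library gave 889 to 2376 for *Myh7* nuclei. *Gm31251*, not called in *Myh2* or *Myh1* nuclei, turned to -0.44 and -0.76 with dominance at 60% and to -0.064 in *Myh1* nuclei without the filter, and without 1 library lay from -0.18 to 0.58 and from -0.45 to 0.14. *Trpc4ap*, the neighbour of *Myh7b*, lay from -0.24 to 0.030 in *Myh1* nuclei. The cause was not tested.

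The 28 member differences between groups were unstable, as 40 of 224 values without 1 library and 14 of 196 under other processing changed direction. With only the 4 libraries compared in the fit, 4 genes were called for Old against Young, 82 for Running against Sedentary and 1 for Old against Young in myonucleus-like nuclei, where DESeq2 called 4. Leaving out 1 library gave 0 to 8 calls for Old against Young (8 without Sedentary replicate 1, 4 without Sedentary replicate 2) and 0 to 418 for Running against Sedentary (418 without Sedentary replicate 2), and 0 to 7 in myonucleus-like nuclei (7 without the same library). *Myh2* in Old against Young was 0.35 with only the 4 libraries.

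With no library set term, Old against Young gave -0.027 for *Myh3*, -1.51 for *Myh7* and -0.75 for *Myh7b*, and Running against Sedentary 0.25 for *Myh3*. In myonucleus-like nuclei it gave -0.0077 for *Myh1*, -0.27 for *Myh2*, -0.35 for *Myh7* and -0.030 for *Myh7b* in Old against Young, and 0.29 for *Myh3* and 0.20 for *Myh8* in Running against Sedentary. *Myh1* there was -0.0028 with relative log expression scaling, -0.0018 with DESeq2 and -0.029 without the filter.

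Without 1 library, Old against Young spanned -1.35 to 0.78 for *Myh1*, -1.78 to 2.40 for *Myh2*, -0.29 to 1.80 for *Myh3*, -1.89 to 6.25 for *Myh7* and -1.84 to 4.55 for *Myh7b*. Running against Sedentary spanned -0.89 to 1.02 for *Myh1*, -1.69 to 0.77 for *Myh3*, -0.047 to 1.49 for *Myh4*, -5.66 to 0.77 for *Myh7* and -4.61 to 0.52 for *Myh7b*. In myonucleus-like nuclei the first spanned -0.76 to 0.98 for *Myh1*, -1.10 to 2.64 for *Myh2*, -1.12 to 6.53 for *Myh7* and -1.40 to 5.07 for *Myh7b*. The second spanned -0.84 to 0.84 for *Myh1*, -2.14 to 1.06 for *Myh3*, -0.15 to 1.52 for *Myh4*, -5.62 to 0.67 for *Myh7*, -5.00 to 0.63 for *Myh7b* and -0.97 to 0.28 for *Myh8*.

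In percentage points, subtracting the non-muscle level, an alternative added after seeing the data like the 10x-only fit, turned the shares of *Myh2* (-1.27), *Myh7* (-0.967) and *Myh8* (-0.0841) in Old minus Young and of *Myh3* (0.180) and *Myh7b* (0.262) in Running minus Sedentary. In most libraries of the second set, *Myh4* was about as high in non-muscle as in myonucleus-like nuclei. The subtraction is unreliable there, and no conclusion is drawn from these changes of sign. Without 1 library, Old minus Young spanned -1.41 to 10.9 for *Myh2*, -1.43 to 3.23 for *Myh7*, -0.0168 to 0.105 for *Myh8* and -13.7 to 25.7 for the hybrid share, and Running minus Sedentary -9.11 to 3.89 for *Myh1*, -0.0189 to 0.00112 for *Myh3* and -1.44 to 31.4 for *Myh4*. The group fits compare libraries within each library set, so the values with no library set term above are those without that pairing. No paired analysis beyond this was made, because the labels give no replicate numbers. The depth of the second set, 909 to 1689.5 UMIs per nucleus at the median, limits what can be said of single nuclei there.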
